A study of Homo sapiens with 12 samples.

Results

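The 40 genes described here encode proteins of the centriole and the centrosome. They were chosen by symbol, from a list of known centrosome components, and all 40 have a row among the 15798 genes of the deposited table. The list was drawn up to ask whether the loss of ribosome density of CENPJ and CCDC18 after MEK inhibition was shared by other centrosome genes, so the values of these 2 genes were known when it was written. HCT116, a human colorectal cancer cell line, was exposed to 100 nM trametinib, which inhibits the kinases MEK1 and MEK2, or to the solvent DMSO over 24 h. All cells received cycloheximide, which stalls ribosomes, shortly before lysis. Input RNA (fragmented cytoplasmic mRNA, a measure of mRNA abundance) and ribosome footprints (the stretches of mRNA that a ribosome shielded from RNase I) were sequenced in 3 biological replicates per treatment, which gave 12 libraries in 4 groups of 3.

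The centrosome is the main microtubule organizing centre of animal cells. It holds a pair of centrioles, cylinders of microtubules, inside a matrix of pericentriolar material that carries gamma-tubulin, the nucleator of new microtubules. Centrioles are copied once per cell cycle. PLK4, a kinase, starts the copy together with STIL and SASS6, which build the cartwheel at its base, and CENPJ (also named CPAP) then lengthens the centriole wall. The mother centriole carries appendages and can template a primary cilium. Several of these genes are transcribed mainly in cycling cells.

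Ribosome density is the ratio of footprints to input, and its change shows whether an mRNA gained or lost ribosomes beyond the change in its own amount. Reads counted within reading frames totalled 2276693 to 2845568 per input library and 10127477 to 19181588 per footprint library. Values below are normalized counts, that is, counts divided by a size factor for each library. Changes are given as the log2 ratio of trametinib to DMSO ± standard error (SE), and a gene was called at an adjusted p-value under 0.05 in the quasi-likelihood test of edgeR. All 40 members were among the 10663 genes tested. DUSP6, a direct output of ERK signalling, changed by -7.62 ± 0.36 (SE) in input, as a check of the treatment.

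The transcription starts of the 4 members that lost ribosome density are shown first, because mRNAs that begin with a C followed by a run of pyrimidines (the 5' terminal oligopyrimidine motif, 5'TOP) are known to be translated under control of mTOR. Each line gives 25 bases on the strand of the gene from RefSeq (GRCh38.p14), with the first 5 transcribed bases in capitals. CCDC18 has 2 listed starts.
CENPJ, chr13:24922847-24922871, minus strand: ggacgggggcGGGGCtccgacagag
CCDC18, chr1:93180706-93180730, plus strand: cccaacggctCCCGCggcggttcga
CCDC18, chr1:93180714-93180738, plus strand: ctcccgcggcGGTTCgaattctgtg
STIL, chr1:47314133-47314157, minus strand: ttgccgcctcAGTTCccgcgacccc
CEP128, chr14:80941724-80941748, minus strand: ctgggcggctAGTTCaagttgccat
None of these 5 starts began with a C followed by 4 pyrimidines. Such a start was found in 3 of the 36 members with a RefSeq window (8.33%: CEP57, CEP170 and ALMS1), in 7.81% of the 8767 tested genes with a window, and in 71.4% of the 77 such genes that the authors marked as 5'TOP. The authors marked 106 genes in all, and 0 of the 40 members were among them. The letters were read at annotated starts, which may differ from the starts used in HCT116.

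Ribosome density was lower in trametinib for 4 of the 40 members, CCDC18, CENPJ, CEP128 and STIL, and higher for 0. Among all tested genes 1.00% were called lower (107 genes) and 0.0469% higher (5 genes). Over the alternatives run, leaving out single libraries included, these counts ran from 68 to 150 lower and from 1 to 37 higher. Without CENPJ and CCDC18, which prompted the list, 2 of 38 members were called lower. The remaining 36 members were not called in either direction. At an unadjusted p under 0.05, 7 members, CENPJ and CCDC18 included, were lower and 0 were higher, beside 4.58% and 3.54% of all tested genes. With these 2 genes left out, 5 of 38 were lower. The median change over the 40 members was -0.07, beside -0.001 over all tested genes, and 24 of the 40 estimates were below 0. Under TMM scaling the 2 medians were 0.003 and 0.07, and under scaling by library totals 0.11 and 0.18. When 1 library was left out, the members' median ran from -0.03 (without DMSO input replicate 1) to -0.25 (without DMSO input replicate 2). A loss of more than 2-fold was estimated for 5 members (12.5%) and for 1.64% of all tested genes. Without CENPJ and CCDC18 it was 3 of 38 (7.89%). Among the 5, CEP72 stood beside the 4 that were called.

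**Figure D1:**
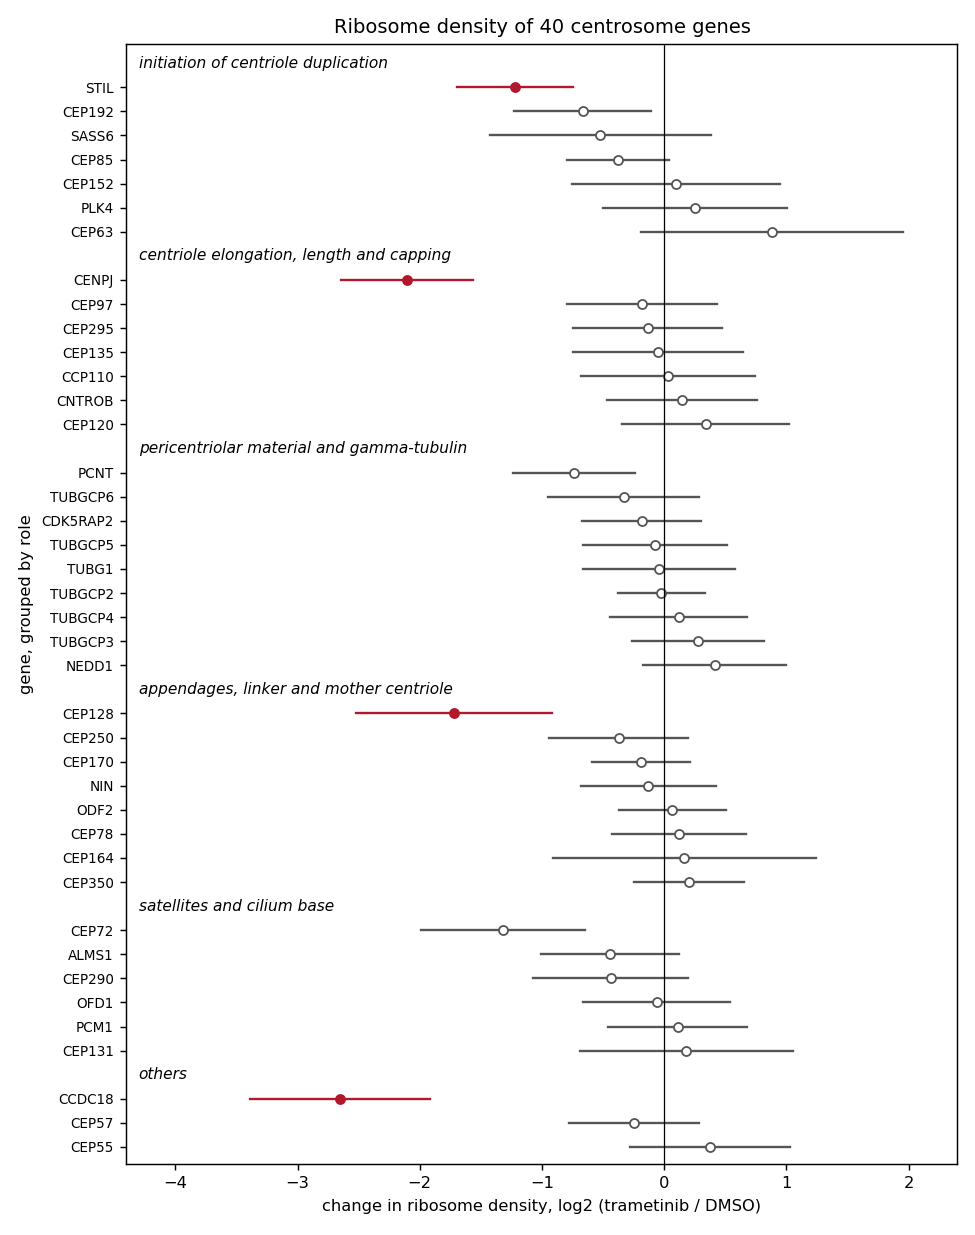
Change in ribosome density (x axis, log2 of trametinib over DMSO) for each of the 40 members (y axis), grouped by role. Points are estimates from 3 input and 3 footprint libraries per treatment, bars are 95% confidence intervals, and filled red points are the 4 members called lower. The called members sit at -1.22 or below in 4 different role groups, and most of the other intervals include 0.

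CENPJ, which sets centriole length by adding tubulin to the growing wall, lay at 159, 216 and 181 normalized counts in the DMSO input libraries and at 97.5, 91.3 and 83.3 in the trametinib input libraries. Its footprints were 145, 179 and 163 in DMSO and 19.8, 19.9 and 15.3 in trametinib. All trametinib libraries were below all DMSO libraries of the same kind, and the gap was far wider in footprints than in input. Input was 2.04-fold lower (log2 change -1.03 ± 0.21 SE, adjusted p = 0.00277, edgeR) and footprints were 8.78-fold lower (-3.13 ± 0.17, adjusted p = 1.89e-06). Ribosome density was thus 4.30-fold lower (-2.11 ± 0.25, 95% confidence interval -2.65 to -1.56, adjusted p = 0.00115). In DMSO CENPJ ranked above 41.7% of the tested genes in footprints over input, and in trametinib above 2.82%.

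CCDC18, a coiled-coil protein of the centrosome, had 148, 142 and 91.4 normalized counts in DMSO input and 48.7, 78.3 and 54.7 in trametinib input. Its footprints were 63.6, 62.2 and 62.8 in DMSO and 4.32, 4.97 and 4.79 in trametinib. The latter values rest on only 14, 12 and 10 counted footprints, but the 3 libraries were close to each other and far below those of DMSO. Input fell 2.11-fold (-1.08 ± 0.28, adjusted p = 0.00966), footprints 13.4-fold (-3.74 ± 0.19, adjusted p = 1.20e-06) and ribosome density 6.28-fold (-2.65 ± 0.34, 95% confidence interval -3.39 to -1.91, adjusted p = 0.00134). The input call was lost without trametinib input replicate 1 (adjusted p = 0.0504). No other member had a lower estimate of ribosome density change.

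STIL, which recruits SASS6 to the site where a new centriole forms, was more abundant than CENPJ and CCDC18 in DMSO. Its input was 715, 755 and 553 normalized counts in DMSO and 144, 115 and 151 in trametinib, and its footprints were 483, 522 and 517 in DMSO and 41.4, 40.1 and 50.7 in trametinib. Here most of the loss was already present in the mRNA. Input was 4.93-fold lower (-2.30 ± 0.19, adjusted p = 1.96e-06), footprints were 11.5-fold lower (-3.53 ± 0.13, adjusted p = 3.55e-07) and ribosome density was 2.34-fold lower (-1.22 ± 0.22, adjusted p = 0.0110).

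CEP128, a component of the subdistal appendages of the mother centriole, had the least certain of the 4 calls. Its input was 165, 155 and 115 normalized counts in DMSO and 70.7, 73.0 and 93.7 in trametinib. Its footprints were 43.1, 38.9 and 65.7 in DMSO and 10.2, 7.86 and 5.74 in trametinib, from 33, 19 and 12 counts. The groups did not overlap in either assay. Ribosome density was 3.30-fold lower (-1.72 ± 0.38, 95% confidence interval -2.52 to -0.92, adjusted p = 0.0421), with input at -0.88 ± 0.24 and footprints at -2.60 ± 0.29. The input call was lost without trametinib input replicate 1 or 2 (adjusted p = 0.0600 and 0.0609).

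**Figure D2:**
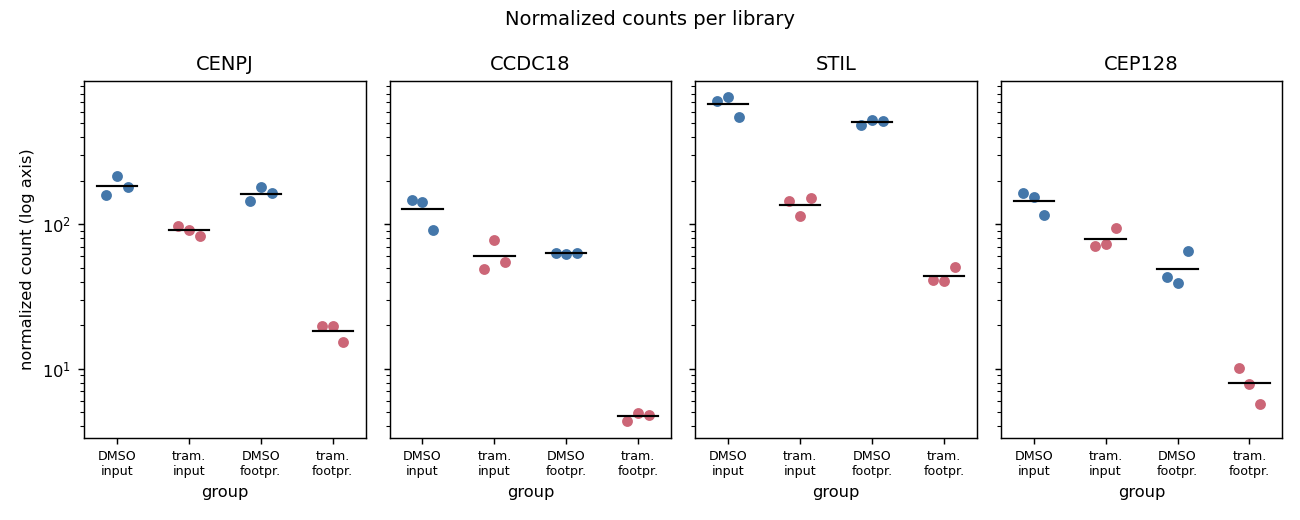
Normalized counts (y axis, log scale) of CENPJ, CCDC18, STIL and CEP128 in each library of the 4 groups (x axis; tram. is trametinib and footpr. is footprints). Points are libraries, blue for DMSO and red for trametinib, and black lines are group means; in all 4 genes the trametinib footprints lie below every other library of that gene.

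The number of members called lower in ribosome density depended on single libraries for STIL and CEP128. It was 2, CENPJ and CCDC18 alone, without trametinib input replicate 1, without trametinib input replicate 3 or without trametinib footprint replicate 2. STIL missed the threshold without any 1 of 4 trametinib libraries (adjusted p from 0.0501 to 0.0527) and CEP128 without any 1 of 8 libraries, at adjusted p-values up to 0.139. CENPJ and CCDC18 were called in every alternative that was run.

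CEP72, a satellite protein that binds PCM1-containing granules, came next. Its footprints were 67.6, 107 and 78.1 normalized counts in DMSO and 25.6, 30.2 and 25.9 in trametinib, whereas its input overlapped between treatments (159, 166 and 227 against 183, 115 and 151). Ribosome density changed by -1.32 ± 0.31, with an adjusted p of 0.0726. CEP72 was called with a replicate block by dish (adjusted p = 0.0317), under DESeq2 (0.00869), without the count filter (0.0422), with DMSO dish 1 left out (0.0260), without DMSO input replicate 3 (0.0419) and without DMSO footprint replicate 1 (0.0222). Its adjusted p ranged up to 0.243 over the other alternatives. PCNT, the large scaffold of the pericentriolar material, was at -0.74 ± 0.23 (adjusted p = 0.285) and CEP192, which brings PLK4 to the centriole, at -0.67 ± 0.26 (adjusted p = 0.480). Both had input close to 0 (-0.24 and -0.04) and footprints that were called lower (-0.97 and -0.70).

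The other members showed no called change in ribosome density, and the precision of these estimates varied. Among the 36 members that were not called, estimates ran from -1.32 to 0.88 with adjusted p-values between 0.0726 and 0.996. The 95% confidence interval excluded a 2-fold loss for 30 of the 36 and included it for 6. The highest estimate, 0.88 ± 0.50, was that of CEP63, a partner of CEP152 at the base of the centriole, but its input held 10, 15 and 13 counts in DMSO and 4, 3 and 9 in trametinib. CEP63 was also the only member that passed the count filter through its DMSO libraries alone. Ratios were also taken by dish, that is, with each footprint library divided by the input library of the same treatment and number. All 3 trametinib ratios lay below all 3 DMSO ratios for 8 members, against 9.10% of all tested genes. Without CENPJ and CCDC18, which prompted the list, it was 6 of 38. For 2 members (CEP63 and TUBGCP4) the trametinib ratios all lay above, against 7.91%.

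Input mRNA was lower in trametinib for 22 of the 40 members and higher for 0. Among all tested genes 16.4% were called lower and 16.2% higher. The median change of the members was -0.82, beside 0.01 over all tested genes. The trametinib input libraries lay wholly below the DMSO ones for 24 members, and this was so for 22.6% of all tested genes. Of the 7 duplication genes 5 were lower, of the 7 elongation and capping genes 6, of the 9 genes of the pericentriolar material and gamma-tubulin 6, of the 8 appendage and linker genes 3, of the 6 satellite and cilium base genes 0, and of the 3 other genes 2.

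CEP55, which acts at the midbody in the final cut of cell division, had the lowest input change of all members. It went from 689, 673 and 466 normalized counts in DMSO to 51.2, 36.5 and 46.9 in trametinib, a 13.5-fold difference (-3.75 ± 0.24, adjusted p = 1.74e-07). Its footprints went from 547, 695 and 796 to 65.1, 56.7 and 73.7 (-3.38 ± 0.17). Ribosome density was estimated at 0.38 ± 0.31 (adjusted p = 0.878), so that CEP55 lost mRNA and footprints by similar factors.

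PLK4, the kinase that licenses duplication, showed the same form. Its input was 264, 410.0 and 319 normalized counts in DMSO and 34.1, 44.3 and 57.3 in trametinib (-2.87 ± 0.26, adjusted p = 3.56e-06). Footprints fell from between 129.7 and 203 to between 25.9 and 32.3 (-2.62 ± 0.21), and ribosome density was at 0.25 ± 0.35 (adjusted p = 0.971). Its 95% confidence interval was -0.50 to 1.01, and the difference from its partner STIL was not tested.

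SASS6, the main protein of the cartwheel, had 79.4, 142 and 91.4 normalized counts in DMSO input and 24.4, 26.1 and 36.4 in trametinib input (-1.84 ± 0.32, adjusted p = 0.000816). Its footprints were 119, 203 and 182 in DMSO and 28.1, 31.4 and 37.8 in trametinib (-2.38 ± 0.23). The groups did not overlap in either assay, and the ribosome density estimate of -0.52 ± 0.42 was not called (adjusted p = 0.878).

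TUBG1, the gene of gamma-tubulin, went from 530.1, 671 and 795 normalized counts in DMSO input to 188, 188 and 206 in trametinib input (-1.78 ± 0.19, adjusted p = 1.46e-05). Footprints were 407, 681 and 714 in DMSO and 187, 168 and 155 in trametinib (-1.82 ± 0.21). Input and footprints moved by similar factors, and ribosome density was at -0.04 ± 0.29, an estimate whose sign turns under TMM scaling (0.03) and under library totals (0.14). Reads that TUBG1 shares with its near-identical copy TUBG2 were not counted by the authors.

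NEDD1, which ties the gamma-tubulin ring complex to the centrosome, was at 339, 287 and 244 normalized counts in DMSO input and at 136, 75.6 and 133 in trametinib input (-1.33 ± 0.24, adjusted p = 0.00100). Its footprints were 404, 462 and 540.3 against 250.3, 228 and 265 (-0.92 ± 0.13), and its ribosome density estimate of 0.41 ± 0.27 was not called (adjusted p = 0.813). CEP120, a partner of CENPJ in centriole elongation, had 612, 429 and 305 normalized counts in DMSO input and 280.3, 256 and 242 in trametinib input (-0.79 ± 0.23, adjusted p = 0.0189). This call rested on single libraries, since the change was -0.50 (adjusted p = 0.0518) without DMSO input replicate 1. Its footprints, 327, 222 and 208 against 169, 180.0 and 206, were not called (-0.45 ± 0.18, adjusted p = 0.0678). The ribosome density estimate of CEP120, 0.34 ± 0.32, was not called either (adjusted p = 0.913).

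The remaining members lower in input included CEP135 (-1.64), a cartwheel pinhead protein, ODF2 (-1.36) and CEP78 (-1.28) of the mother centriole, CEP152 (-1.27), the scaffold for PLK4, and the ring complex subunits TUBGCP3 (-1.18), TUBGCP5 (-0.94) and TUBGCP4 (-0.80). The other members lower in input were CEP85, CDK5RAP2, CEP295, CCP110 and CEP97, at -0.98 to -0.71. Ribosome density estimates of the 7 genes with values here lay between -0.08 and 0.28. The ring complex was not uniform. TUBGCP2 was at 0.00 in input, with an SE of 0.16, and TUBGCP6 at 0.57 ± 0.21, the one member whose input was higher at an unadjusted p under 0.05 (adjusted p = 0.0558). Members of the satellites and cilium base ranged from -0.40 to 0.26 in input, and none was called. Estimates were negative for ALMS1 (-0.40), CEP131 (-0.35) and CEP72 (-0.29). They were positive for PCM1 (0.09), the satellite scaffold, OFD1 (0.20) and CEP290 (0.26).

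Markers of proliferating cells were read beside the input of these genes. All 19 of 19 such markers were lower in both input and footprints, with a median input change of -3.08 and a range from -4.88 (CCNA2, a cyclin) to -1.45 (MCM6, a subunit of the replicative helicase). Their part in the input result was not tested, and in bulk samples fewer cycling cells and less mRNA per cycling cell cannot be told apart. Ribosome density of the same 19 markers was called in 0 cases by edgeR, with 3 lower at an unadjusted p under 0.05 and a median of -0.38. The DMSO replicates differed, and in footprints replicate 1 was the lowest for every marker but MKI67. CCNA2 footprints in DMSO were 598, 1053 and 1302 normalized counts. MCM4 was lowest in replicate 1, with 1249, 3319 and 3052 normalized counts in DMSO input and 1613, 5398 and 5987 in DMSO footprints. MKI67 footprints in DMSO were 2227, 1955 and 1974, whereas its DMSO input was 2363, 3502 and 2618.

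Promoters of the genes that led the input decrease were examined for motifs of cell cycle genes. The 120 bases before the RefSeq start of CEP55 and TUBG1 are shown as 2 examples, chosen because they hold such motifs, with matches in capitals on either strand.
CEP55, chr10:93496492-93496611, plus strand, GRCh38.p14: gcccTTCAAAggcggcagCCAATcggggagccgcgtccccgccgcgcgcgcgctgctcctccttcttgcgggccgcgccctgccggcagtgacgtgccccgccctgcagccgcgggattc
TUBG1, chr17:42609563-42609682, plus strand, GRCh38.p14: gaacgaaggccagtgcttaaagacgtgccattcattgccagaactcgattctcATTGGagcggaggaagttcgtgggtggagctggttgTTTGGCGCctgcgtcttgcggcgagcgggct
CEP55 holds TTTGAA, the letters of the cell cycle homology region, and CCAAT, the NF-Y box. TUBG1 holds CCAAT and TTTGGCGC, 1 of 3 E2F strings searched (the others were TTTCCCGC and TTTCGCGC). Within 250 bases before the start and on both strands, CCAAT was found in 11 of 20 members lower in input (55.0%), in 6 of 16 not called (37.5%) and in 42.2% of all tested genes with a window. TTTGAA was found in 3 of 20 and 3 of 16 (15.0% and 18.8%, against 11.5%), and an E2F string in 2 of 20 and 2 of 16 (10.0% and 12.5%, against 5.18%). These shares were not tested. Beside CEP55 and TUBG1, the members with the lowest input changes were PLK4, STIL and SASS6. In the same 250 bases PLK4 and STIL held only CCAAT, and SASS6 held none of these motifs. A match is a description of the letters, not a binding site. Of the 4 members with lower ribosome density CCDC18 and STIL held CCAAT in the 250 bases, and none of the 4 held either of the other motifs.

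Footprints were lower in trametinib for 26 of the 40 members and higher for 0, beside 24.8% lower and 24.7% higher among all tested genes. The median was -0.90. For 29 members the trametinib footprint libraries lay wholly below the DMSO ones, as they did for 29.2% of all tested genes. Members lower in both input and footprints numbered 21, and 1 (CEP120) was lower in input alone. Another 5 were lower in footprints alone, namely CEP72, PCNT, CEP192, ALMS1, which acts at the cilium base, and CEP57, a pericentriolar protein. The remaining 13 were called in neither, namely CEP63, CNTROB, CEP131, CEP164, CEP170, CEP250, CEP290, CEP350, NIN, OFD1, PCM1, TUBGCP2 and TUBGCP6. Of the 22 members with lower input 18 had no called change in ribosome density, and the 4 with lower ribosome density were all among the 22. Few genes of any kind were called in ribosome density (1.00% of all tested genes lower and 0.0469% higher). Combinations of calls were counted for the members only, so these splits have no share over all tested genes beside them.

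**Figure D3:**
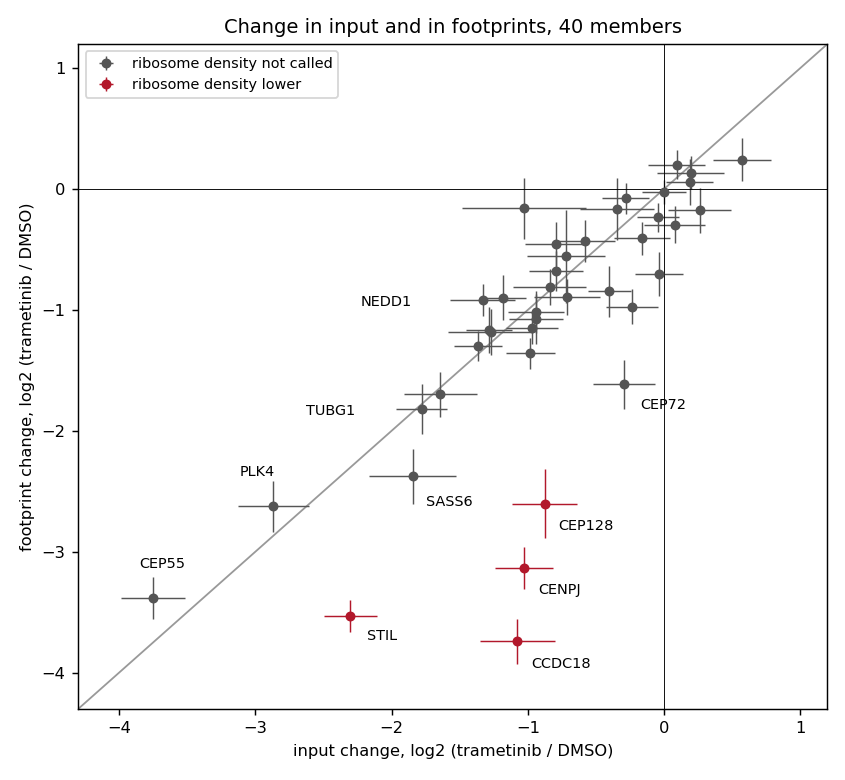
Change in input (x axis) against change in footprints (y axis), both log2 of trametinib over DMSO, for the 40 members. Bars are standard errors, the grey line marks equal change, and red points are the 4 members with lower ribosome density. TUBG1 lies close to the line and CEP55 and PLK4 somewhat above it, whereas CCDC18, CENPJ, CEP128 and STIL lie below it by 1.22 to 2.65.

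The mRNAs of these 40 members carried few footprints for their amount of input already in DMSO. The log2 ratio of footprints to input had a median of -0.86 over the members and 0.02 over all tested genes in DMSO, and of -0.98 and 0.002 in trametinib. In DMSO 36 of the 40 members were below the median of all tested genes and 25 were in its lowest 25%. Levels ran from -2.77 for CEP164, which forms distal appendages, to 0.69 for NEDD1 and SASS6. The members that lost ribosome density did not start from one level. CENPJ was at -0.19, STIL at -0.41, CCDC18 at -1.02 and CEP128 at -1.56 in DMSO, and in trametinib they were at -2.31, -1.63, -3.69 and -3.32. The trametinib values of CCDC18 and CEP128 ranked above only 0.47% and 0.70% of the tested genes.

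**Figure D4:**
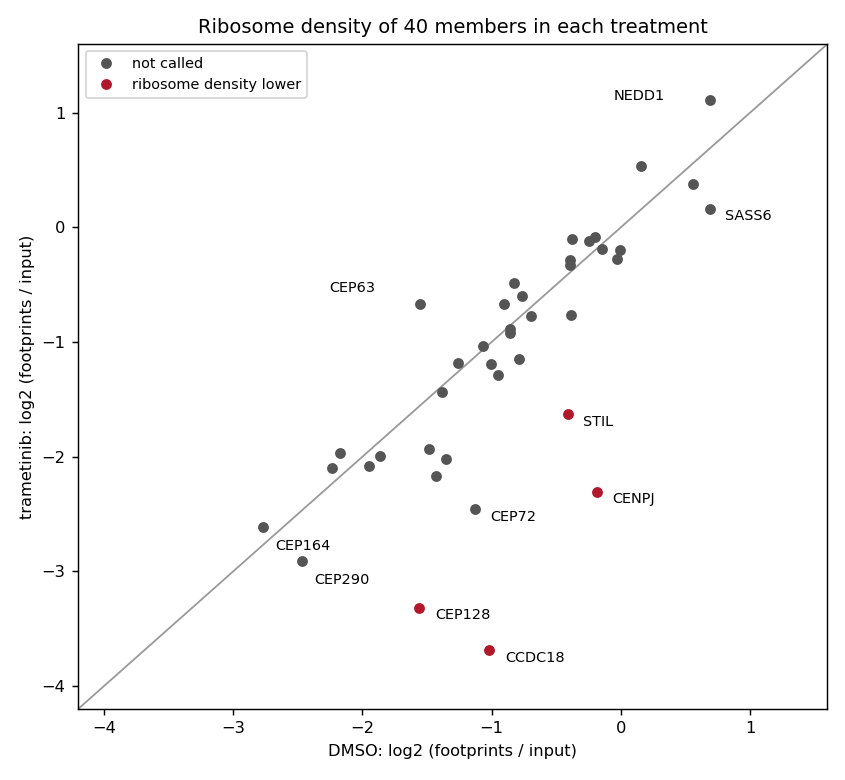
Log2 ratio of mean footprints to mean input in DMSO (x axis) and in trametinib (y axis) for the 40 members, with a grey line of equal value. The 4 members with lower ribosome density (red) started between -1.56 and -0.19 in DMSO, and most other members stayed near the line at low ratios.

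Centrosome proteins are long, and reading frame length went with this ratio. The median coding length of the members was 3160.5 nucleotides (range 1392 to 12504), against 1477.5 over the 10588 tested genes with a length, and 39 of the 40 exceeded the latter. Across genes, Spearman's rho between coding length and the DMSO ratio was -0.41 over these tested genes and -0.61 over the 40 members. With the change in ribosome density rho was 0.02 over the tested genes and -0.34 over the members. These correlations are descriptions across genes, which share the same libraries and are not independent replicates.

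A further 76 centrosome, satellite and centriole genes were listed as a wider set, of which 70 were tested. None of the 70 was called in ribosome density by edgeR. At an unadjusted p under 0.05, 9 were lower and 2 higher, beside 4.58% and 3.54% of all tested genes. The median change of the 70 was 0.01. In DMSO their log2 ratio of footprints to input had a median of -0.37, beside -0.86 over the 40 members and 0.02 over all tested genes. The lowest adjusted p-value was 0.107 for CCDC66 (-0.94 ± 0.24), a satellite protein. Lower estimates were those of CCDC15 (-1.26 ± 0.45) and POC1A, a centriole stability protein, and neither was called (adjusted p = 0.442 and 0.224). In input 30 of the 70 were lower (42.9%) and 3 higher (4.29%), beside 16.4% and 16.2% of all tested genes, with a median of -0.57. The lowest were NEK2 (-3.90 ± 0.27), a kinase that dissolves the link between centrosomes, and WDR62 (-3.80 ± 0.40), a spindle pole protein. The higher ones were KIZ (0.82 ± 0.29), CEP112 (0.73 ± 0.26) and AKAP9 (0.61 ± 0.20). In footprints 41 were lower (58.6%) and 5 higher (7.14%), beside 24.8% and 24.7% of all tested genes.

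All libraries were scaled to one another, so a change in translation common to all mRNAs is not visible in these values. Input was sequenced less deeply than footprints, and the SE of the input change exceeded that of the footprint change for 31 of the 40 members. The SE of the change in ribosome density ranged from 0.17 to 0.50, with a median of 0.28.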

How the data were processed

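After adapter trimming, the authors filtered out rRNA and tRNA reads with Bowtie 1.2.2 and mapped the rest to Gencode V38. Reads in the reading frames of a single gene symbol were counted. The authors deposited raw counts per gene and library, a normalized signal (each count over its library's size factor) and a mark for 5'TOP genes. The table also holds fold changes and adjusted p-values made with DESeq2 1.46.0, and a mark for stemness genes, which were not used. Recomputed size factors matched theirs within a relative difference of 1e-06 for 12 of 12 libraries.

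Genes reaching 10 counts in 3 or more of the 6 input libraries were tested (10663 genes), with the quasi-likelihood test of edgeR 4.0.16 in R 4.3.3 and Benjamini-Hochberg adjustment over all of them. Median-of-ratios size factors came from the tested genes. Ribosome density was the interaction of treatment and assay over 12 libraries, and input and footprints were each tested over 6. These main fits held no replicate block. The code was tested on simulated data. P-values measure the spread between these replicates. Alternatives included DESeq2 1.42.0, limma 3.58.1, other scalings and filters, a replicate block and leaving out each library.

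Groups came from the sample labels. The members and gene lists were chosen with earlier results of these data known. Values in every library are given for CENPJ and CCDC18, for members called in ribosome density, for the 5 lowest and 5 highest input changes among called members (none was called higher) and for the 3 lowest and 3 highest ribosome density estimates at a mean normalized input of at least 50. For input changes, a mean of at least 20 in either treatment was required. CEP72, PCNT, CEP192, CEP63 and TUBGCP6 were added after their values were seen. Coding lengths and loci are from Gencode v44 and promoters from RefSeq, both on GRCh38.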

Additional observations from a re-analysis of the deposited data

How the results depend on the processing

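CENPJ and CCDC18 kept their call in ribosome density under all alternatives, between -2.23 and -1.93 and between -2.79 and -2.35. Leaving out 1 library gave 2 to 5 members with lower and 0 with higher ribosome density, 18 to 24 lower and 0 to 1 higher in input, and 24 to 29 lower and 0 to 1 higher in footprints. With a change of at least 2-fold required, 13 members were lower in input and 17 in footprints, beside 914 and 974 of the 10663 tested genes. In input 1 member was higher at an adjusted p under 0.1, under limma-trend, without the count filter and with the replicate block, and in footprints 1 was higher under library totals and with DMSO dish 1 left out, an alternative chosen after seeing the data, under which 5 members were lower in ribosome density. The ribosome density of TUBG1 (-0.04) turned to 0.031 under TMM, to 0.14 under library totals and ranged from -0.26 to 0.11 without single libraries. The cause was not tested. CEP128 missed the threshold under TMM (adjusted p = 0.0635), library totals (0.0742), limma-trend (0.0603) and the replicate block (0.0577), with 3 members lower in each. DESeq2 called 5, CEP72 being the added one. Library totals moved the median ribosome density change of all genes to 0.18 and that of footprints to 0.165.

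Deviations of input and footprint libraries with the same number correlated across 7677 genes (Pearson's r, DMSO 0.815, 0.180 and 0.343, trametinib 0.141, 0.0815 and -0.121). Between treatments, the correlations of libraries with the same number were 0.0680, 0.0483 and 0.333 for input and 0.117, 0.132 and 0.294 for footprints. By the study's methods, input RNA was set aside from the lysates that were then digested for footprints. The labels pair these libraries only by their number, so the fits without a replicate block stand in the text. These fits leave the pairing by dish out of account. A replicate block by number gave 24 members lower in input, 26 in footprints and 3 in ribosome density, and a block by dish gave 5, again with CEP72.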
